A study of Mus musculus with 5 samples.

Results

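Interleukins, their receptor chains and the JAK, STAT and SOCS genes were examined in lung RNA of 5 mice of the inbred C3H strain. These ova mice were made allergic to ovalbumin, a protein of egg white that serves as the allergen in mouse asthma models, and then exposed to it again. Each ova mouse had its own 2-colour array, on which its amplified lung RNA was hybridised against 1 pool of amplified lung RNA from control C3H mice. The treatment of the controls, the number of mice in the pool, and the age, sex and days of challenge are unknown from the labels. The genes were chosen by symbol alone: every gene whose symbol starts with Il, Socs, Stat or Jak followed by a digit, apart from Il4, Il5, Il9, Il13, Il13ra1, Il13ra2 and Il17rb. The probe annotation named 68 such genes on 71 probes. Of these, 46 were measured on 4 or 5 arrays, out of 9727 genes in all, 14 had values on 1 to 3 arrays, and 8 had none.

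Interleukins are secreted signals by which leukocytes and tissue cells instruct one another. Most of them bind receptors without kinase activity of their own, and the attached JAK kinases phosphorylate STAT factors, which move to the nucleus and switch on target genes. Among those targets are the SOCS genes, whose products block the receptor and the kinases and so close a feedback loop. Receptors of the interleukin-1 and interleukin-17 families signal instead through adaptor proteins toward NF-kB. In the allergic lung, interleukin-4 and interleukin-13 act through STAT6 on epithelium and macrophages.

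Values are log ratios of an ova mouse and the pool, taken as log2, after each array was centred on its median. The labels name the ova mouse first but give no dye or numerator, and the files do not state the log base. Retnla and Clca1, which are known to be induced in allergic airways, had mean ratios of -4.79 and -4.33. Since the direction of the ratio is not settled by the labels, a gene is described as lying on the negative side (below 0), where these response genes lie, or on the positive side (above 0). The 10 pairs of arrays correlated with Pearson's r of 0.643 to 0.83 over probes, none of them below 0. Between 11778 and 13320 probes had a value on an array, brightness was not available, and the precision of a mean is limited by the number of arrays. Of the marker genes of alveolar type 2 cells 6 of 8, and of club cells 6 of 6, were measured on 4 or 5 arrays, but a ratio does not show their level. Each gene's mean was tested against 0 with limma, two-sided, with Benjamini-Hochberg adjustment over all 9727 genes and a threshold of 0.05. A gene past it is called negative or positive by its side. The pool is 1 control sample, so the test measures the spread among ova mice and leaves out that among control mice. Since the dyes are not stated, a dye effect on a probe that all arrays share cannot be told apart from a difference between ova mice and pool. In bulk lung, a change in the number of cells of a type and a change in RNA per cell cannot be told apart.

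The promoters of 4 of the genes that passed are shown first, since short motifs for the factors of these pathways occur in them. They come from the RefSeq promoter table (build GRCm38.p6), run from 250 bases before to 50 bases after an annotated start, and are written 5′ to 3′ on the gene's own strand. Capitals mark the motif matches. Socs1 and Il6 had the largest mean ratios. Il7r and Il18r1 are the genes past the threshold, 1 on each side, whose promoters held TTCNNNGAA, the pattern bound by several STAT factors, where N is any base.
Socs1, chr16:10785487-10785786, minus strand: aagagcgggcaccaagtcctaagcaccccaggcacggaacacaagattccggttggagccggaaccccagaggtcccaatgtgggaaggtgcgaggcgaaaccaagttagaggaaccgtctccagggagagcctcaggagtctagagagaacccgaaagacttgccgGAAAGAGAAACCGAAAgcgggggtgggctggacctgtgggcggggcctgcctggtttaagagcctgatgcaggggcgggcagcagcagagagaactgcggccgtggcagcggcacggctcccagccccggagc
Il6, chr5:30012864-30013163, plus strand: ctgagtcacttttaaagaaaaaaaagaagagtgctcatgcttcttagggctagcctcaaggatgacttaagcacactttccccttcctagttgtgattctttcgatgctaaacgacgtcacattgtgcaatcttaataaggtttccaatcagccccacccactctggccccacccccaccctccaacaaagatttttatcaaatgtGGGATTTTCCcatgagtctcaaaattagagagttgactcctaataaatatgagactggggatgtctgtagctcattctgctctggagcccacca
Il7r, chr15:9529827-9530126, minus strand: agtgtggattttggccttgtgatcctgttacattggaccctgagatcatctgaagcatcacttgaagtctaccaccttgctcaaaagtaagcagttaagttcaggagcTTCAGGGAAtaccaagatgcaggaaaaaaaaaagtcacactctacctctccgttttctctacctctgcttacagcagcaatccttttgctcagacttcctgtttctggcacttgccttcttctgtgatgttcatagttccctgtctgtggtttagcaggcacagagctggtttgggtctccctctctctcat
Il18r1, chr1:40465756-40466055, plus strand: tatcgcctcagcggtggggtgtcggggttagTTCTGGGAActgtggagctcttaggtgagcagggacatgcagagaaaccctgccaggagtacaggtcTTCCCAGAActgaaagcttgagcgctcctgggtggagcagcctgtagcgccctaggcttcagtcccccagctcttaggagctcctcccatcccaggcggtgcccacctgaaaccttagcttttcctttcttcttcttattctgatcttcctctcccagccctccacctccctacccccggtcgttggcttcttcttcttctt

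In the Socs1 promoter the capitals are 2 overlapping matches to GAAA repeated after 2 bases of any kind, a pattern of interferon-regulated promoters, beginning 83 and 77 bases before the start. In the Il6 promoter they are 1 match to GGG and TTTCC with 2 bases of any kind between them, an NF-kB pattern, beginning 44 bases before the start. The match in Il7r begins 142 bases before its start, and the 2 matches in Il18r1, at 1 of its 3 annotated starts, begin 219 and 152 bases before that start. Of 46 measured genes, 34 had an entry in the promoter table. TTCNNNGAA occurred at 1 or more starts of 4 of these 34 genes (11.8%), against 8.51% of the 7741 array genes with an entry, and TTC and GAA 4 bases apart, the spacing preferred by STAT6, occurred in 4 (11.8%) against 6.83%. The interferon pattern occurred in 2 (5.88%) against 3.49%, and the NF-kB pattern in 3 (8.82%) against 1.85%. Both of these patterns were added after the values were seen, and their matches include Socs1 and Il6. Their shares are therefore description only and cannot show that the patterns are more frequent in this set. Both strands were searched, the STAT patterns read the same on either strand, and no match to one pattern overlapped a match to another in the promoters shown. These shares rest on few genes and describe letters in a 300 base window.

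Among the 46 genes, Socs1, Il6 and Il10ra had the largest mean ratios, from -1.07 to -0.78, all on the negative side, and Il21r, Il31 and Jak2 followed between -0.53 and -0.51. In all, 11 of the 46 genes (23.9%) were called negative, as were 15% of all 9727 genes, and 3 (6.52%) were called positive, as were 12.3% of all genes. Together these were 14 genes (30.4%), close to the 27.3% of all genes. The median over the 46 genes was -0.02, against 0 over all genes, and their means ranged from -1.07 to 0.27. The 3 positive genes were Il12a, Il18r1 and Il1rapl2, at 0.27 or less. By class, 7 of 19 receptor chains were called negative and 2 positive, as were 2 and 1 of 15 interleukins. Of 12 JAK, STAT and SOCS genes 2 were negative and 0 positive in limma, with 2 above 0 at an unadjusted p under 0.05. The number of calls varied with the mouse left out. Without mouse 5 there were 7 negative calls. The positive calls fell to 2 without mouse 1, 1 without mouse 2 and 0 without mouse 3, 4 or 5 (limma), where 4, 4 and 5 genes lay above 0 at an unadjusted p under 0.05. Calls over all 9727 genes fell too, from 1463 negative and 1193 positive to 933 and 673 without mouse 5.

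**Figure D1:**
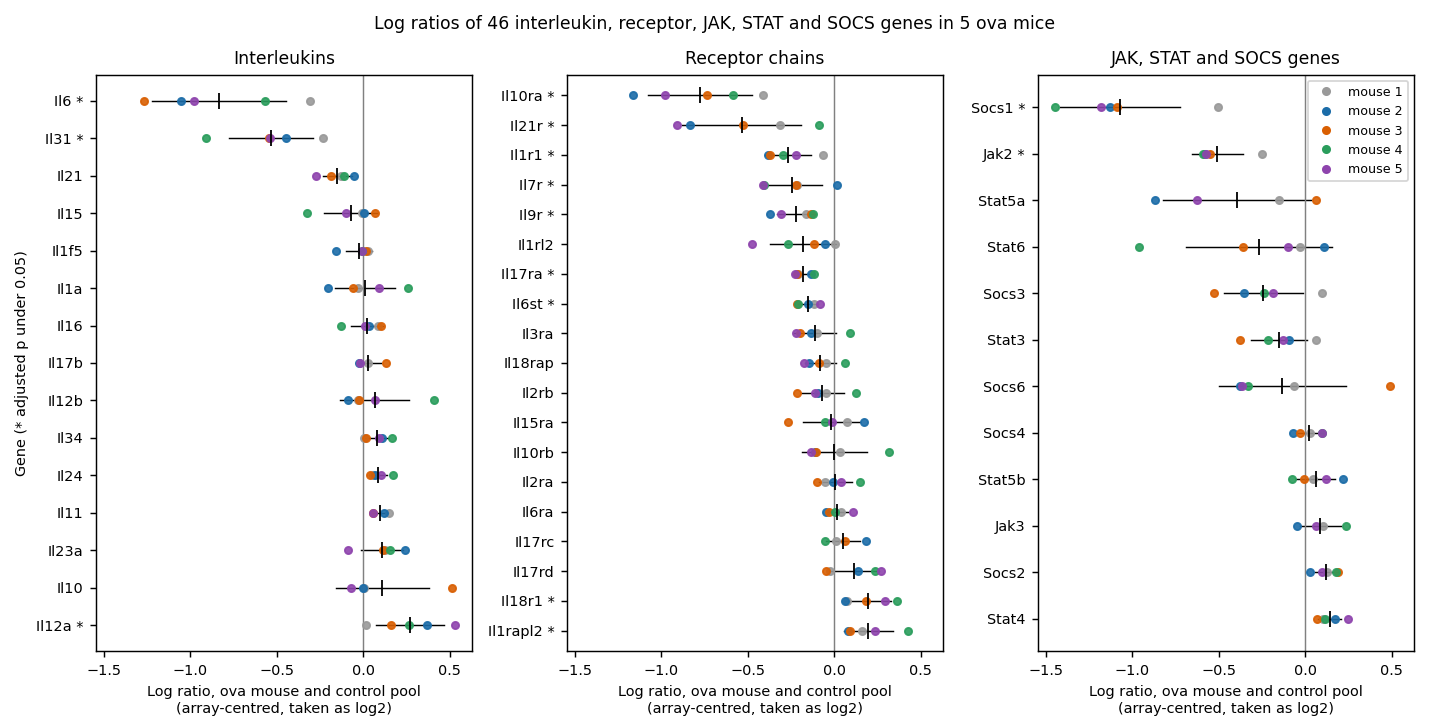
Log ratio (x axis, taken as log2) of each of the 46 genes (y axis) in each ova mouse (coloured points, 1 per mouse), with the mean (vertical tick) and SD (line) over 4 or 5 mice; a star marks an adjusted p under 0.05. Socs1, at the top of the right panel, lies between -1.45 and -0.50 in all mice, whereas most genes of the 3 panels straddle 0.

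**Figure D2:**
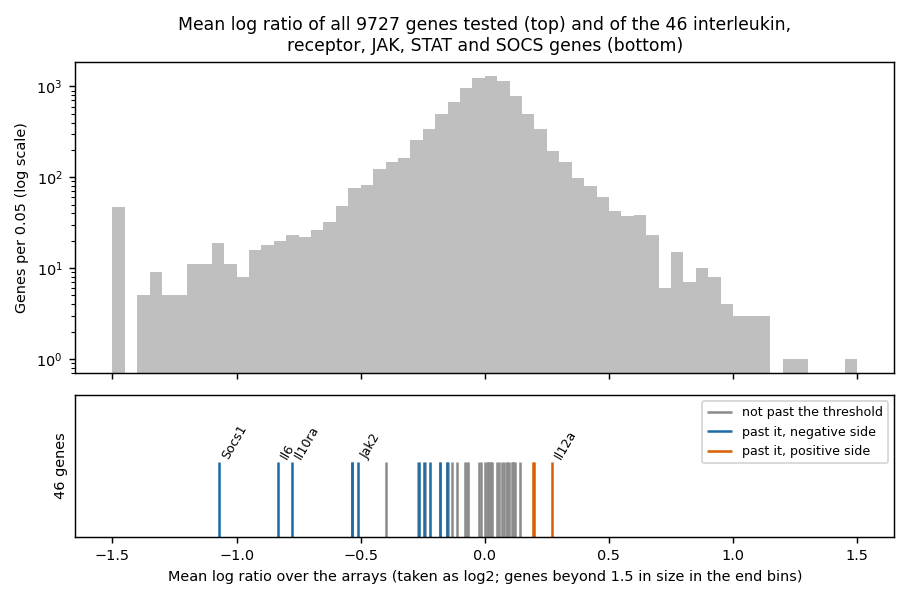
Number of genes per 0.05 of mean log ratio on a log axis (top, all 9727 genes, end bins holding genes beyond 1.5 in size) and the mean of each of the 46 genes as a line (bottom, blue or orange where past the threshold on the negative or positive side). Socs1 at -1.07 is the lowest of the 46 and Il12a at 0.27 the highest.

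Of the SOCS genes, Socs1, the feedback inhibitor of interferon and interleukin-4 signalling, had ratios of -0.50, -1.13, -1.09, -1.45 and -1.18 in mice 1 to 5. All mice lay below 0, with mouse 1 nearest to it. The mean was -1.07 ± 0.35 (SD, n = 5; limma adjusted p = 0.00117), which is 2.10-fold if the log base is 2 and lay at the 1.04 percentile of all genes. Socs1 was 1 of 5 measured SOCS genes past the threshold, and the other 4 did not pass. Over all genes 27.3% passed on either side, and 5 genes are few for a comparison with that share. Socs3, the inhibitor of interleukin-6 type receptors, had ratios of 0.10, -0.35, -0.53, -0.24 and -0.19. Its mice 2 to 5 lay below 0 and mouse 1 above it, with a mean of -0.24 ± 0.23 (limma adjusted p = 0.0654). Without mouse 1 the mean was -0.33 and passed (limma adjusted p = 0.0134). Socs6 was also split by a single mouse: mouse 3 stood at 0.49, while the remaining mice ranged from -0.38 to -0.07. Its mean of -0.13 ± 0.37 did not pass (limma adjusted p = 0.466), and without mouse 3 it was -0.29 (limma adjusted p = 0.0351). Socs2, the inhibitor of growth hormone signalling, was above 0 in 5 of 5 mice, between 0.03 and 0.19, with a mean of 0.12 ± 0.07 that did not pass (limma adjusted p = 0.0807). Socs4 lay between -0.07 and 0.10.

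Of the JAK kinases, Jak2, which serves receptors for interferon gamma, interleukin-12 and the haematopoietic cytokines, had ratios of -0.25, -0.58, -0.55, -0.59 and -0.57. Mice 2 to 5 were within 0.05 of one another and mouse 1 was smaller in size. The mean was -0.51 ± 0.15 (limma adjusted p = 0.00155). Jak3, the kinase bound to the common gamma chain in lymphocytes, was measured on 4 arrays between -0.05 and 0.23, with a mean of 0.09 ± 0.12 (limma adjusted p = 0.332). Jak1 is not analysed here. Tyk2, the remaining kinase of the family, whose symbol keeps it outside the set, had a mean of -0.23 ± 0.15 (limma adjusted p = 0.029).

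None of the 5 measured STAT genes passed in limma, although 1 lay below and 1 above 0 at an unadjusted p under 0.05. With 27.3% of all genes past the threshold, 5 genes are few for a comparison. Stat6, the factor activated by interleukin-4 and interleukin-13, varied most between its lowest and highest mouse, with ratios of -0.03, 0.11, -0.36, -0.96 and -0.10. Only mouse 4 lay beyond 0.5, and the mean was -0.27 ± 0.42 (limma adjusted p = 0.194; 95% interval of the fit from -0.59 to 0.06). Stat5a, a factor of interleukin-2 and granulocyte-macrophage colony-stimulating factor signalling, had ratios of -0.15, -0.87, 0.06 and -0.63 in mice 1, 2, 3 and 5. Its mean of -0.40 ± 0.43 (n = 4, limma adjusted p = 0.0927) was the largest in size among genes of the set that did not pass. Stat5b, its close relative, lay between -0.08 and 0.22. Stat3, the main factor of interleukin-6 signalling, had a mean of -0.15 ± 0.16 over 2 probes, with 1 probe at -0.20 and the other at -0.07 (limma adjusted p = 0.127). Stat4, the factor of interleukin-12 in T cells, was above 0 in 5 of 5 mice, between 0.07 and 0.25, with a mean of 0.14 ± 0.07 that did not pass (limma adjusted p = 0.0548). The probe of Stat4 lies 18 IDs from that of Fxyd1 (1.02). Mean ratios of probes that name different genes correlated with r = 0.155, 0.109 and 0.108 at 6, 18 and 24 IDs apart, over 8844 to 9201 pairs, and with 0.023 at most at the other distances up to 29, and the part of this neighbour was not tested. Stat2 had no value on any array.

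Of the interleukins, Il6 and Il31 were called negative. Il6, the inflammatory cytokine that drives the acute phase response, had ratios of -0.30, -1.05, -1.27, -0.57 and -0.98. All 5 mice lay below 0, with mouse 1 nearest to it, and the mean was -0.83 ± 0.39 (limma adjusted p = 0.00378). Il31, a T cell cytokine known for its role in itch, had ratios of -0.23, -0.45, -0.54, -0.91 and -0.54 and a mean of -0.53 ± 0.24 (limma adjusted p = 0.00446). Its probe is a cDNA clone that the annotation assigns to Il31, and no other probe named the gene. On the positive side, Il12a, the p35 subunit of interleukin-12, had ratios of 0.02, 0.37, 0.16, 0.27 and 0.53. All lay above 0, but mouse 1 was close to it, and the mean of 0.27 ± 0.20 (limma adjusted p = 0.031) lost its call without mouse 2, 3, 4 or 5 (limma adjusted p-values between 0.0612 and 0.0924). Il12b, the p40 subunit that pairs with p35, had 0.07 ± 0.20 and did not pass. Ebi3, the partner of p35 in interleukin-35, had 0.07 ± 0.23, and Il23a, the p19 subunit that pairs with p40 in interleukin-23, had 0.11 ± 0.12, and neither passed.

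The other 12 measured interleukins did not pass. Il21, a T helper cell cytokine, was below 0 in 5 of 5 mice, between -0.27 and -0.05, with a mean of -0.15 ± 0.08 just outside the threshold (limma adjusted p = 0.0532). It passed under 3 alternatives, with limma adjusted p-values between 0.0408 and 0.0422 (0.0408 to 0.163 over all 16). Il10, the cytokine that restrains macrophages, stood at 0.00, 0.00, 0.51 and -0.07 in mice 1, 2, 3 and 5, so that its mean of 0.11 ± 0.27 (limma adjusted p = 0.453) rests on mouse 3. Il15, Il1f5, Il1a, Il16 and Il17b had means between -0.07 and 0.03, and Il34, Il24 and Il11 between 0.08 and 0.10. Il24 and Il34 lay above 0 in 5 of 5 mice and Il11 in 4 of 4, with means that did not pass (limma adjusted p = 0.17, 0.233 and 0.199).

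Receptor chains, 19 of the 46 genes, held 7 of the 11 negative and 2 of the 3 positive calls. Over all genes, 15% were called negative and 12.3% positive. Il10ra, the ligand-binding chain of the interleukin-10 receptor carried by leukocytes, had ratios of -0.41, -1.16, -0.73, -0.58 and -0.98. All 5 mice lay below 0, and the mean was -0.78 ± 0.30 (limma adjusted p = 0.00224). The second chain, Il10rb, which is shared with other receptors and widely expressed, gave 0.00 ± 0.19 over 2 probes (limma adjusted p = 0.994; 95% interval from -0.17 to 0.17). Of its probes, 1 stood at 0.68 in mouse 4 while the remaining mice ranged from -0.14 to 0.00, and the second lay between -0.22 and 0.10. The second probe lies 6 IDs from that of Gins1 (-1.02), and the part of this neighbour was not tested. Without that probe the Il10rb mean was 0.09 and did not pass (limma adjusted p = 0.603). The ligand Il10, given above, did not pass.

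Of 6 measured receptors that pair with the common gamma chain, 3 were called negative and 0 positive (limma; 0 above 0 at an unadjusted p under 0.05). The shares over all genes were 15% and 12.3%, and 6 genes are few for a comparison with them. Il21r, carried by B, T and natural killer cells, had ratios of -0.31, -0.83, -0.53, -0.09 and -0.91. Mice 2, 3 and 5 lay beyond 0.5 in size and mouse 4 near 0, with a mean of -0.53 ± 0.35 (limma adjusted p = 0.0131). Il9r, the receptor of the mast cell growth factor interleukin-9, lay between -0.37 and -0.13 with a mean of -0.22 ± 0.11 (limma adjusted p = 0.0192), and it did not pass without mouse 2 or 5 (limma adjusted p = 0.0604 and 0.07). Il7r, the lymphocyte survival receptor, had 0.02 in mouse 2, while the remaining mice ranged from -0.41 to -0.22. Its mean was -0.25 ± 0.18 (limma adjusted p = 0.0327), and it did not pass without mouse 1, 3, 4 or 5 (limma adjusted p-values between 0.057 and 0.11). The chains of the interleukin-2 and interleukin-15 receptors, Il2ra (0.01), Il2rb (-0.07) and Il15ra (-0.02), did not pass. Il2rg and Il4ra are not analysed here. Il3ra, which pairs with the common beta chain, had -0.11 ± 0.12 and did not pass (limma adjusted p = 0.182).

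Of 5 measured genes of the interleukin-1 receptor family, 1 was called negative and 2 positive, beside 15% and 12.3% of all genes. Il1r1, the signalling receptor for interleukin-1, had ratios of -0.06, -0.38, -0.37, -0.29 and -0.22. All lay below 0, and the mean was -0.27 ± 0.13 (limma adjusted p = 0.0127), which rose to an adjusted p of 0.0516 without mouse 3. Il18r1, the ligand-binding chain of the interleukin-18 receptor, was above 0 in 5 of 5 mice, between 0.06 and 0.36. Its mean of 0.20 ± 0.13 (limma adjusted p = 0.0407) did not pass without mouse 3, 4 or 5 (limma adjusted p-values between 0.0996 and 0.13). Its partner chain Il18rap, on the other side at -0.08 ± 0.09, did not pass (limma adjusted p = 0.272). Il1rapl2, an accessory protein gene better known from the nervous system, lay between 0.08 and 0.42 with a mean of 0.20 ± 0.14 (limma adjusted p = 0.0434). It did not pass without any one of the 5 mice (limma adjusted p-values between 0.0579 and 0.122). Il1rl2, the receptor of the interleukin-36 cytokines, ranged from 0.00 in mouse 1 to -0.47 in mouse 5 and did not pass (mean -0.18 ± 0.19, limma adjusted p = 0.105). Il1rl1, Il1b and the other ligands of this family not named above are not analysed here, apart from those with few values given below.

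Il6st, the gp130 chain shared by the interleukin-6 type receptors, lay between -0.21 and -0.08 in all 5 mice. Its mean over 2 probes was -0.15 ± 0.06 (limma adjusted p = 0.0357), with the probes at -0.13 and -0.18. The call was lost without any one mouse (limma adjusted p-values between 0.0619 and 0.109) and with the first probe alone (limma adjusted p = 0.0797). Il6ra, the ligand-binding chain, had 0.02 ± 0.06 (limma adjusted p = 0.803). Il17ra, the common receptor chain of the interleukin-17 family, lay between -0.23 and -0.11, with the smallest SD of the genes that passed (mean -0.18 ± 0.05, limma adjusted p = 0.0186). It did not pass without mouse 1, 3 or 5 (limma adjusted p = 0.0501, 0.0637 and 0.0662). The other chains Il17rc (0.05, n = 4) and Il17rd (0.11) did not pass.

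**Figure D3:**
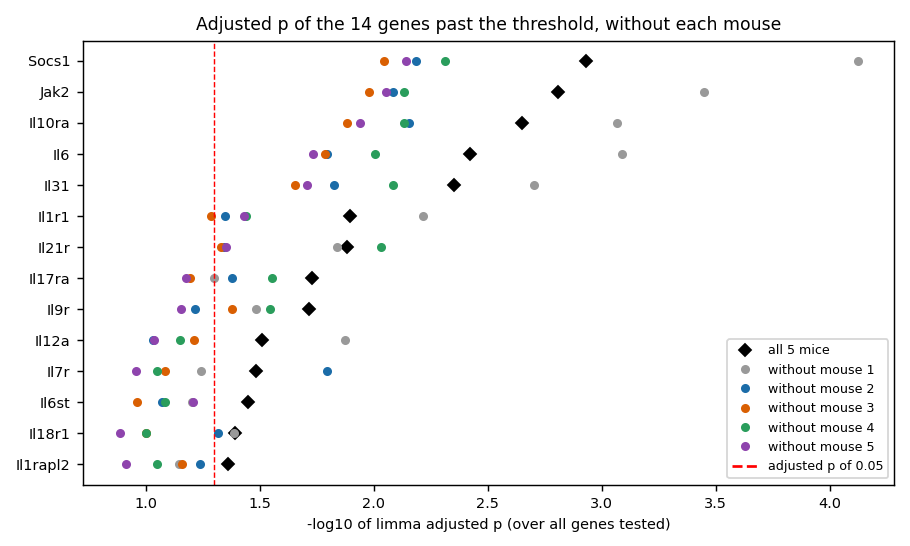
Strength of each call as -log10 of the limma adjusted p (x axis) for the 14 genes past the threshold (y axis), with all 5 mice (black diamonds) and without each mouse in turn (coloured points); the dashed line marks an adjusted p of 0.05. Socs1, Jak2, Il10ra, Il6, Il31 and Il21r stay right of the line in all of these fits, and the other 8 genes cross it in at least 1.

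Over the 14 genes that passed, 10 lay below 0 on every array and 3 above 0 on every array, Il7r being the exception through mouse 2. In mouse 1 the ratio was 0.455 of the mean over mice 2 to 5 (median over the 14 genes), and 7 of the 14 genes had their smallest size in mouse 1. Over all probes the SD was 0.20 in mouse 1 and 0.32 to 0.38 elsewhere. Over all 46 genes, 41.3% had the same sign on all their arrays, against 40.1% of all genes. A mean beyond 0.5 in size was found for 6 of the 46 (13.0%) and for 6.29% of all genes. Against a minimum size of 0.25 (limma's treat), 4 of the 46 passed, Socs1, Il10ra, Il6 and Jak2, all negative, as were 2.85% of all genes, and 0 were positive (limma's treat; 0 at an unadjusted p under 0.05), as were 1.33% of all genes. None of the 14 genes had a probe 6, 12, 18 or 24 IDs from a probe of another gene with a mean beyond 1 in size.

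Other genes of the same pathways, from lists written by function, also lay on both sides. The counts below stand beside 15% negative and 12.3% positive calls over all 9727 genes. Of 21 further JAK-STAT pathway genes, 5 were called negative and 1 positive, and their median was -0.03. They were led by Pias4, a SUMO ligase that restrains STAT activity (-1.01 ± 0.39, limma adjusted p = 0.00203), whose probe lies 6 IDs from that of Lilrb4a (-1.46), and by Ptprc, the leukocyte phosphatase CD45 (-0.62 ± 0.22). The phosphatase gene Ptpn1 (-0.38) and the transcriptional repressor gene Bcl6 (-0.35) were also called negative, and the survival gene Mcl1 (0.20) positive. The probe of Bcl6 lies 6 IDs from that of Adam8 (-1.33). Without probes 6, 12, 18 or 24 IDs from one beyond 1 in size, 16 of these pathway genes were left, of which 3 were called negative and 1 positive, and their median was 0.05. Of 18 other cytokine and receptor genes, most of which use JAKs, 5 were called negative and 4 positive, and their median was -0.05. In this list, Csf1 (-0.16, called negative) and Crlf3 (0.21, called positive) have no established use of JAKs. The probe of Csf2rb2 lies 24 IDs from that of Gstm1 (1.14). Csf2rb2, a beta chain for interleukin-3 (-0.73 ± 0.45), and Csf3r, the granulocyte colony-stimulating factor receptor of neutrophils (-0.45 ± 0.26), were the largest on the negative side. Ghr, the growth hormone receptor (0.45 ± 0.12), and Tslp, an epithelial alarmin (0.45 ± 0.11), were the largest on the positive side. Interferon gamma itself, Ifng, had -0.03 ± 0.09 and did not pass (limma adjusted p = 0.709). Of 11 genes listed around interleukin-1 and interleukin-17 signalling, most of them adaptor genes, 3 were called negative. Among these 3 were Tab1 (-0.27) and Pycard (-0.31, n = 4), an adaptor of the inflammasome rather than of these receptors. The median of the 11 was 0.02 (-0.08 over the 9 left without probes near such strong ones). On the other side 0 were called (limma; 2 at an unadjusted p under 0.05).

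Genes known as targets of STAT6 and STAT3 lay mostly on the negative side. Among all genes, 15% were called negative and 12.3% positive. Of 13 STAT6 target genes, 11 were called negative and 0 positive, the median was -0.96, and only Ccl24 (0.00) and Pparg (-0.14) did not pass. The probes of 6 of the 11, namely Arg1, Clca1, Muc5ac, Mrc1, Ccl17 and Fcer2a, lie 6, 12 or 18 IDs from one beyond 1 in size on the same side, as for Clca1 (-4.33) and Sar1a (-3.22, 18 IDs) or Ccl17 (-0.28) and Ccl8 (-2.89, 18 IDs). Without them, 5 of 7 STAT6 target genes were called negative and the median was -0.94, so the count was lower and the median close to that of all 13. Fcer2a was left out for a neighbour at 12 IDs, a distance at which the correlation between probes was not raised (r = -0.00906). Of 9 STAT3 target genes, 4 were called negative and 0 positive, and the median was -0.24. These were Saa3 (-3.88), Reg3g (-2.70), Junb (-0.48) and Lbp (-0.30), while Socs3, which is also in this list, did not pass. The probe of Saa3 lies 6 IDs from an unnamed one at -2.14, and without Saa3 3 of 8 were called negative with a median of -0.21. The part of these neighbours was not tested further. None of these target genes lay above 0 at an unadjusted p under 0.05 in limma, and STAT activity itself was not measured. Many of these target genes were known to be large in these data when the lists were written, so their medians are no independent evidence of a direction.

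**Figure D4:**
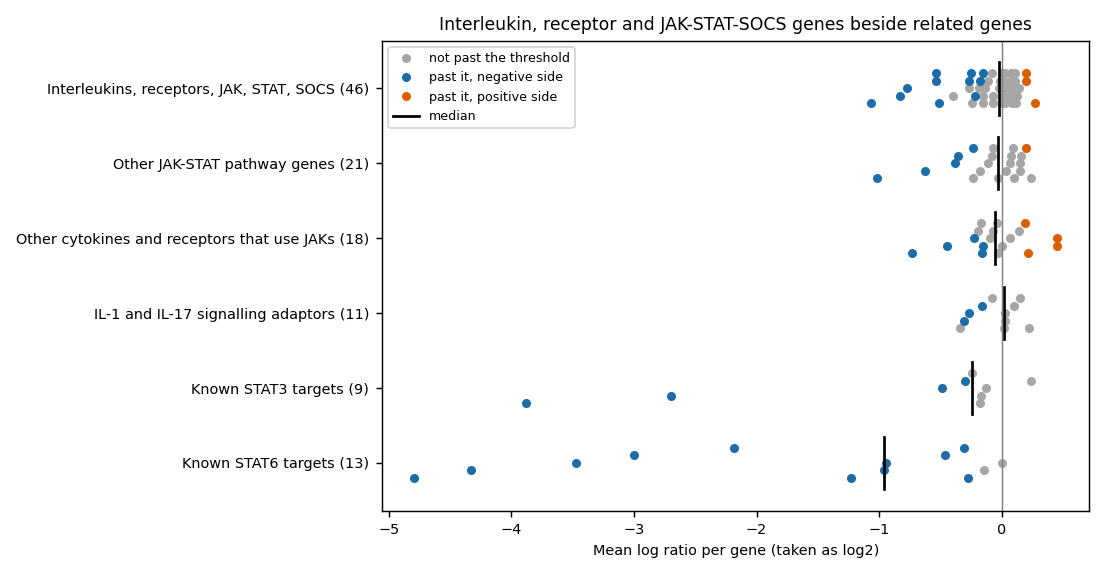
Mean log ratio per gene (x axis, taken as log2; 1 point per gene, spread vertically for legibility) for the 46 genes and 5 lists of related genes, with the number measured in brackets; blue and orange points are past the threshold on the negative and positive side and black lines are medians. The medians of the STAT3 and STAT6 target genes lie at -0.24 and -0.96, and that of the 46 genes at -0.02.

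Markers of cells that can carry these receptors were called as well, and their part in the ratios above was not tested. For comparison, 15% of all genes were called negative and 12.3% positive. Negative calls made up 9 of 13 macrophage and monocyte markers (median -0.67), 7 of 8 neutrophil markers (median -0.47) and 7 of 10 B cell markers (median -0.36), beside 0, 0 and 1 positive calls (limma; 0, 0 and 2 above 0 at an unadjusted p under 0.05). Of 17 T cell and natural killer cell markers 3 were called negative and 1 positive (median -0.02), of 5 eosinophil markers 3 and 1, and of 6 mast cell and basophil markers 1 and 1. Endothelial markers lay on the positive side, with 8 of 9 past the threshold (median 0.59). Of 6 alveolar type 2 markers 1 was called negative and 3 positive, of 6 club cell markers 0 and 3, and of 6 smooth muscle markers 2 and 0 (limma; at an unadjusted p under 0.05, 0 club cell markers below 0 and 1 smooth muscle marker above it). Without probes 6, 12, 18 or 24 IDs from one beyond 1 in size, 2 of 12 T cell and natural killer cell markers were negative. The positive marker of that list, Gzmb, dropped out, its probe lying 6 IDs from an unnamed one at -3.04. Ctla4 (-0.38), called negative, also dropped out for a neighbour at 12 IDs, where the correlation between probes was not raised (r = -0.00906). Negative calls were then 8 of 10 macrophage and monocyte, 6 of 7 neutrophil and 6 of 8 B cell markers. All 7 endothelial markers left were positive. Some genes count in several lists, among them Mrc1 under macrophages and STAT6 targets, and Csf3r under neutrophils and cytokine receptors.

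Genes with values on 1 to 3 arrays were not part of the test above. Il33, the epithelial alarmin that activates type 2 lymphoid cells, had ratios of -0.30, -0.39 and -0.24 in mice 2, 3 and 5, all below 0. With genes on at least 3 arrays admitted, its mean of -0.31 ± 0.08 passed (limma adjusted p = 0.019), the only 1 of 8 added genes of the set to do so. Over all 10683 genes of that fit, 1474 were called negative and 1195 positive, against 1463 and 1193 of the 9727 genes above. Il1f6, an interleukin-36 gene, stood at -0.28, -0.28 and -1.46 in mice 1, 2 and 5 (limma adjusted p = 0.094). Il1rn, the interleukin-1 receptor antagonist, had -0.46 and -0.55 in mice 3 and 4, and Il18bp, the interleukin-18 antagonist, -0.03, -0.52 and -0.18 in mice 1, 3 and 5. The interleukin-12 receptor chains Il12rb1 (-0.10) and Il12rb2 (-0.16), and Il20 (-0.02), Il3 (0.08) and Socs5 (0.07), each on 3 arrays, did not pass. Il17a had 0.18 and 0.12 in mice 2 and 5. Single values were found for Il25 (0.18, mouse 2), Il1f8 (-0.02, mouse 2), Socs7 (-0.16, mouse 2) and Il5ra (0.16, mouse 3). No array gave a value for Il2, Il7, Il18, Il1r2, Il1rap, Il27ra, Il4i1 or Stat2.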

How the data were processed

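The authors' deposited table holds 1 signed value per probe and array, read here as a log2 ratio. Neither the log base, the numerator, the dyes nor any upstream step is given in the sources used here. Probe genes came from GEO's platform annotation, and the gene table (GRCm38.p6) changed 0 symbols. Array medians were subtracted. Probes naming 1 gene were averaged per gene and array, and genes on at least 4 arrays were tested in R 4.3.3 with limma 3.58.1 (an intercept fitted by lmFit, then eBayes and Benjamini-Hochberg adjustment). The test was checked on simulated data. The smallest two-sided p of an exact sign test over 5 arrays is 0.0625, so single genes rest on the model. Genes were named by this rule: up to 15 with the largest mean on each side among genes called with 1 sign on all their arrays, plus a fixed list of central interleukin, receptor, JAK, STAT and SOCS genes. Il7r is in the fixed list, and the remaining genes were named to account for every one. The genes, lists and tests were chosen with earlier results of these data known. The interferon and NF-kB motifs were added after seeing the values. Alternatives varied the centring, scale, filter, probe averaging, probe neighbours, variance model and mice.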

Additional observations from a re-analysis of the deposited data

Results flagged for a closer look

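Of the 46 genes, 3 had 1 mouse set apart from the others by more than Dixon's 95% limit for their number of arrays, and chance alone flags about 5% of such groups. Jak2 was -0.25 in mouse 1, with the next mouse at -0.55. Il10 was 0.51 in mouse 3, with the next mouse at 0.00. Il1f5 was -0.16 in mouse 2, with the next mouse at -0.01. The 3 values came from 3 different mice.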

How the results depend on the processing

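None of the 46 genes changed side with a call under any alternative, 8 of the 14 that passed lost the call under at least 1, and 4 others gained one under at least 1. Without 1 mouse, between 7 and 9 of the 46 genes were called negative and between 0 and 2 positive, and over all genes between 933 and 1424 were negative and between 673 and 1116 positive. These fits kept the same 9727 genes, and fewer arrays leave fewer degrees of freedom. Against a minimum size of 0.25 (limma's treat), 4 of the 46 were called negative and 0 positive (0 at an unadjusted p under 0.05). With values required on all 5 arrays the median of the remaining genes was -0.070, in place of -0.02, since 6 genes dropped out. Values as deposited, quantile normalization, arrays scaled to one spread, a filter of 3 arrays, the median or first of several probes, probes without strong neighbours, robust variances, array weights and natural logarithms kept both counts within 1.5 times (10 to 12 and 3 to 4). Without probes near strong ones, Stat4, Il15 and Il6ra could not be fitted. Stat4 passed with quantile normalization and scaled arrays (limma adjusted p = 0.0448 and 0.0435; 0.0435 to 0.168 over 15 alternatives). No paired analysis was possible because the series has 1 group.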
